A study of Mus musculus with 5 samples.

Results

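Il1rl1 encodes ST2, the receptor for IL-33, and lies on mouse chromosome 1 in a row of IL-1 receptor family genes. This account covers RNA polymerase II (Pol II) at 7 of these genes in regulatory T (Treg) cells with and without Setd2, the methyltransferase that places the trimethyl mark on lysine 36 of histone H3. The members were the 6 clustered genes Il1r2, Il1r1, Il1rl2, Il1rl1, Il18r1 and Il18rap, and Il1rap on chromosome 16. A peak was given to a gene when its midpoint lay in the gene body or in the 3 kb before it. By this rule 5 of the 7 genes held a peak, with 20 peaks in all, out of 56615 peaks and 13542 genes in the whole table. The question was whether the neighbours of Il1rl1 changed with it.

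Pol II was mapped by CUT&Tag, in which an antibody on chromatin brings a transposase that cuts and tags the DNA next to the bound protein. Treg cells were sorted by CD3, CD4 and YFP from spleens of 8-week-old C57BL/6 mice of pooled sex. All mice carried the Cre recombinase under Foxp3 and were given IL-2c (1 μg IL-2 with 5 μg anti-IL-2 antibody, which expands Treg cells) for 3 days, then killed 48 h later. Ctrl mice were Setd2 flox/+ and KO mice Setd2 flox/flox, so the controls also carried Cre and 1 floxed allele, and deletion was limited to cells that had expressed Foxp3. There were 2 Ctrl and 2 KO libraries of 80000 nuclei each, with 2 mice given per genotype. The study's methods describe cells pooled from a pair of mice and call each library a biological replicate, while the labels do not say whether both libraries of a genotype came from separate animals. The p-values therefore measure only the spread between these libraries, which may be in part technical. The IgG library was not analysed here.

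The IL-1 receptor family works in pairs. A ligand-binding chain (Il1r1 for IL-1, Il1rl1 for IL-33, Il1rl2 for IL-36, Il18r1 for IL-18) joins an accessory chain (Il1rap for the first group, Il18rap for IL-18), and the joined intracellular domains recruit Myd88, Irak4 and Traf6 towards NF-kB. Il1r2 is a decoy that binds IL-1 without signalling, and ST2 marks a GATA3-expressing group of Treg cells found in tissues such as the gut.

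The Il1rl1 gene has a distal and a proximal start, and the 300-base promoter windows of both are shown because Pol II peaks surrounded the first and none lay at the second. The Il18r1 windows are shown because that gene starts 137 bp after Il1rl1 ends, and the Il1r2 and Il1rap windows are the starts of the members whose counts were not lower in KO. Windows run from 250 bases before to 50 bases after a start, are from RefSeq (GRCm38.p6, the assembly of mm10, + strand), and were found for 7 of the 7 members (11 windows). The central 300 bases of the peak 2.1 kb before Il1rl1 are added. Capitals mark 3 kinds of short word on either strand. The GATA words were AGATAA or AGATAG and likewise TGATAA or TGATAG. The STAT word was TTCNNNGAA, with any base at N. The AP-1 word was TGANTCA. In the windows printed no marked words overlapped.
Il1rl1 distal start, chr1:40429320-40429619: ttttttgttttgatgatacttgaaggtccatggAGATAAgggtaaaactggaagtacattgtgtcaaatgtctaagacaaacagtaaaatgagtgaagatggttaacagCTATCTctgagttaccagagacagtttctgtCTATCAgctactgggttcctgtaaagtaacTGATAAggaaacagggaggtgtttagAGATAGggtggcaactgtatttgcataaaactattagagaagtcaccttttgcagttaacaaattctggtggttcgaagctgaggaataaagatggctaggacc
Il1rl1 proximal start, chr1:40439379-40439678: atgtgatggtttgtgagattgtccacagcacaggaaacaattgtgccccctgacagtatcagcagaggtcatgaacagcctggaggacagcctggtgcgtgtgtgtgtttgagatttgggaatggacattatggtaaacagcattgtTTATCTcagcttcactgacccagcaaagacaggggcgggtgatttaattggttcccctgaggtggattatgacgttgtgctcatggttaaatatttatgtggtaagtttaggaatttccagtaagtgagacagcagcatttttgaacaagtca
Il1rl1 peak at -2.1 kb, chr1:40427299-40427598: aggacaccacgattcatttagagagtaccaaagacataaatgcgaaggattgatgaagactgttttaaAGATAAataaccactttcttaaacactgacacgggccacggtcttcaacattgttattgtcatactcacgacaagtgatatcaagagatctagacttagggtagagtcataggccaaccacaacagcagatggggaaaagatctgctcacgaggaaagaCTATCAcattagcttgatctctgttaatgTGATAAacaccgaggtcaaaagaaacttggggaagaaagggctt
Il18r1 first start, chr1:40465302-40465601: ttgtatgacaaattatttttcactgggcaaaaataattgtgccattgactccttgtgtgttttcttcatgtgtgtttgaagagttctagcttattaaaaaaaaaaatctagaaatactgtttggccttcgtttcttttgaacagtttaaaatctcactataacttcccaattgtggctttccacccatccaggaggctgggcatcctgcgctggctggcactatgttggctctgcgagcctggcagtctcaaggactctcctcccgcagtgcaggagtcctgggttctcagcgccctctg
Il18r1 last start, chr1:40465756-40466055: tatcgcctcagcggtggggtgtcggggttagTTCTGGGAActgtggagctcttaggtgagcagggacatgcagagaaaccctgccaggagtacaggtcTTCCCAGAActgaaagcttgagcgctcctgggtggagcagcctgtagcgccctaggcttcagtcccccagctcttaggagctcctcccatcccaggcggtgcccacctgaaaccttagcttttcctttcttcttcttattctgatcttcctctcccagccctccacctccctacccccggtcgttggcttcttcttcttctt
Il1r2, chr1:40085843-40086142: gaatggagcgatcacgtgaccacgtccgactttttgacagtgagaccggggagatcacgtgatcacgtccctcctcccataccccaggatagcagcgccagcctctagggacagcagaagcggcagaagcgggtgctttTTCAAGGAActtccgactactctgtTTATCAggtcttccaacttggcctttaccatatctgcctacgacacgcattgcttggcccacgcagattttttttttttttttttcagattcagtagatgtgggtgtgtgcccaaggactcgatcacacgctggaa
Il1rap, chr16:26581455-26581754: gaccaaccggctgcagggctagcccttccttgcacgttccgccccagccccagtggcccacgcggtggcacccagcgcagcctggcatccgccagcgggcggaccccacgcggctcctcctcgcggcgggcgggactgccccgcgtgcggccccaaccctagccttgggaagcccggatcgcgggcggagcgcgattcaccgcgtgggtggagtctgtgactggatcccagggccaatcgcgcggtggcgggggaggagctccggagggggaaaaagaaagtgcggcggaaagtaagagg

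The distal Il1rl1 window held 5 GATA words and no STAT or AP-1 word, and the proximal window held 1 GATA word. A GATA word was present in 29.8% of all 32851 promoter windows, and 5 or more words in 18 of them (0.0548%), a count chosen after the Il1rl1 sequence had been read. The peak at -2.1 kb held 3 GATA words, where 31.8% of all 56615 central peak windows held at least 1. The share of peak windows with 3 or more was not counted. The central windows of the other Il1rl1 peaks held 2 (at -0.4 kb), 1 (1.0 kb), 0 (2.4 kb) and 0 (15.4 kb) GATA words. The intergenic peak at -4.2 kb held 0. The intergenic peak at -29.8 kb held 4 and the Il18rap peak held 3, and at both of these the counts of KO and Ctrl overlapped. The first Il18r1 window held none of the words and its last window held 2 STAT words, a word found in 8.3% of all promoter windows. The Il1r2 window held 1 GATA and 1 STAT word, and the Il1rap window, with 33 CpG in 300 bases against 1 in the distal Il1rl1 window, held none. AP-1 words were in 7.81% of all promoter windows and in none of those printed. These matches are letters in a window, not bound sites.

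Total counts were 4489646 to 13351007 per library, and both libraries numbered 1 were the deeper of their genotype. Counts were divided by DESeq2 size factors (0.578 to 1.69) before levels were compared, and are called normalized counts. All 6 Treg marker genes on the list (Foxp3, Il2ra, Ctla4, Ikzf2, Cd3e, Cd4) held peaks, while 0 of 5 cytotoxic T and NK cell markers held a peak. The B cell, myeloid, mast cell and basophil, Th2 and ILC2 cytokine, and erythroid lists each had 1 or 2 genes with a peak. Their values are given further below. Of the 6 Treg marker genes, 0 had an unadjusted p below 0.05 by DESeq2, where 2.81% of all genes were below it. By edgeR 1 of the 6 did (Ctla4, 0.21 ± 0.13 SE on the log2 scale by DESeq2), where 4.77% of all genes were below it. Setd2 itself summed to 513 and 517 normalized counts in Ctrl and 455 and 570 in KO (log2 fold change -0.018 ± 0.19 SE), and since Pol II over the whole gene does not read the deleted part, this checks no label. Pol II in a bulk sample counts cells and Pol II per cell together, so fewer ST2+ cells and less Pol II on Il1rl1 in each cell cannot be told apart.

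Pol II over Il1rl1 was lower in KO. The 5 peaks of the gene (chr1:40429570-40465415, + strand) summed to 341 and 289 normalized counts in Ctrl 1 and Ctrl 2 (486 and 208 reads) against 188 and 170 in KO 1 and KO 2 (318 and 98 reads). Both KO libraries stood below both Ctrl libraries, and the gap between the groups was wider than the spread within either. The KO mean of 179 ± 12.8 (SD, n = 2) was 56.7% of the Ctrl mean of 315 ± 36.8 (SD, n = 2). In the DESeq2 fit over all 13542 genes, Il1rl1 had a log2 fold change of -0.82 ± 0.24 SE (95% interval -1.28 to -0.35). The unadjusted DESeq2 p was 0.000531, the 25th smallest of all genes, and the Benjamini-Hochberg adjusted p was 0.287, so Il1rl1 did not pass at 0.05 after correction over all genes. The same comparison gave -0.86 for KO 1 over Ctrl 1 and -0.77 for KO 2 over Ctrl 2 on the log2 scale of normalized counts.

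Il1rl1 was the 1 member of 5 with an unadjusted DESeq2 p below 0.05, and it was lower in KO. Across all genes, 2.81% were below that threshold in either direction and 1.4% were below it and lower in KO. No member passed the adjusted threshold, at which 0.096% of all genes passed by DESeq2 (13 genes). Among the 5 members, 1 had both KO libraries below both Ctrl libraries, a pattern held by 16.9% of all genes, and 2 (Il1r2 and Il1rap) had both KO above both Ctrl, held by 17.3% of all genes. The median log2 fold change of the 5 members was -0.10, and that of all genes was -0.0047.

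The Il1rl1 peaks at which both KO libraries stood below both Ctrl libraries lay around its distal start. Positions below are given in kb of the peak midpoint from that start, with minus for upstream. The peak at -0.4 kb (chr1:40428963-40429466), which overlaps the first part of the distal promoter window shown above, held 97.8 and 75.8 normalized counts in Ctrl 1 and Ctrl 2 against 50.5 and 42.6 in KO 1 and KO 2. The peak at 1.0 kb (chr1:40430188-40430864, in an intron) held 111 and 81.3 in Ctrl against 53.5 and 52.8 in KO. At both peaks every KO value was below every Ctrl value.

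The peak at -2.1 kb (chr1:40427151-40427747), the one printed above, held 76.2 and 57.9 normalized counts in Ctrl 1 and Ctrl 2 against 37.4 and 30.7 in KO 1 and KO 2. The intronic peak at 2.4 kb (chr1:40431819-40432149) held 44.6 and 44.1 in Ctrl against 25.0 and 20.4 in KO. These groups did not overlap either. The log2 fold changes from the outermost upstream to the intronic side were -0.97 ± 0.47 SE at -2.1 kb, -0.89 ± 0.41 at -0.4 kb, -0.87 ± 0.40 at 1.0 kb and -0.95 ± 0.55 at 2.4 kb, which differ from each other by less than their standard errors. The unadjusted DESeq2 p was 0.0384, 0.0315, 0.0287 and 0.0869 in that order, and the adjusted p over all 56615 peaks was 0.99999 for each.

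**Figure D1:**
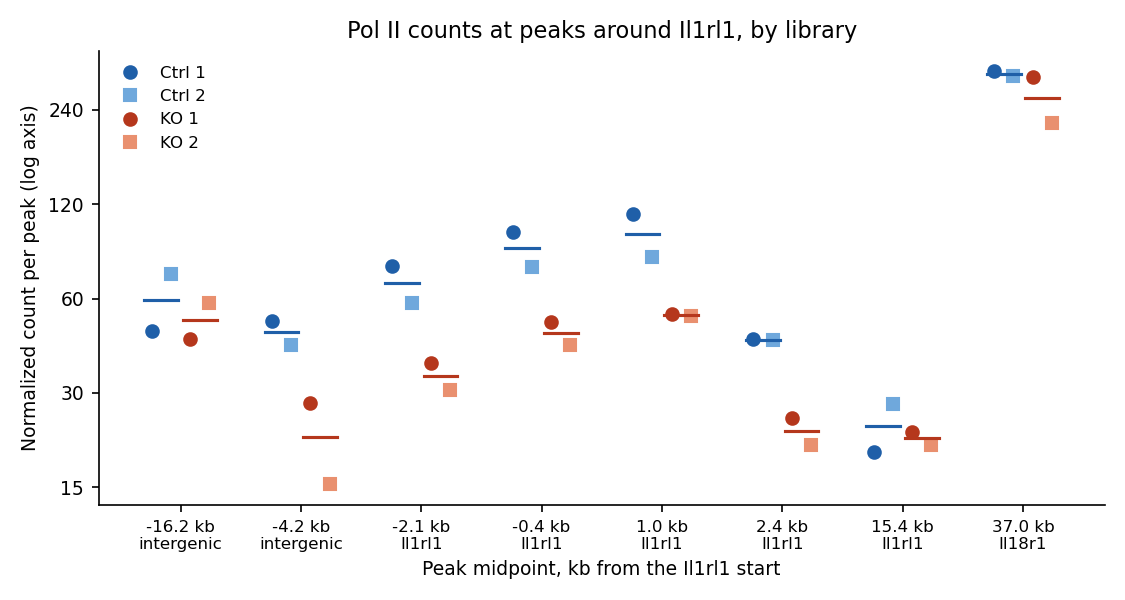
Normalized counts per peak (log axis) in each library at 8 neighbouring peaks, ordered by distance in kb from the Il1rl1 start. Points are libraries and bars are means of 2. At the 5 peaks from -4.2 to 2.4 kb both KO libraries lie below both Ctrl libraries, as they do at the Il18r1 peak at 37.0 kb, where KO 1 lies just under Ctrl, while at -16.2 and 15.4 kb the groups overlap.

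The next peak upstream, at -4.2 kb (chr1:40425148-40425583), fell outside the 3 kb rule and counts for no gene. It held 51.0 and 42.7 normalized counts in Ctrl 1 and Ctrl 2 against 27.9 and 15.3 in KO 1 and KO 2, the last from only 9 reads. Its log2 fold change was -1.06 ± 0.57 SE, with an unadjusted p of 0.0608 by DESeq2 and 0.037 by edgeR, and an adjusted p of 0.99999 by DESeq2 over all peaks. Leaving out KO 1 moved it to -1.62, since KO 2 was the lower library there.

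Further into the gene only 1 more peak was called. This last Il1rl1 peak, in an intron at 15.4 kb (chr1:40444807-40445049), held 19.4 and 27.6 normalized counts in Ctrl 1 and Ctrl 2 and 22.6 and 20.4 in KO 1 and KO 2, so the groups overlapped. Its log2 fold change was -0.10 ± 0.66 SE, and without Ctrl 2 it was 0.15. Its 95% interval of -1.39 to 1.19, from 12 to 38 reads per library, holds both no change and the values at the start, and the difference between it and the other peaks was not tested. No merged peak lay at the proximal start shown above, so no value can be given for it.

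In all, 3 of the 20 member peaks had an unadjusted DESeq2 p below 0.05 with lower counts in KO, and all 3 belonged to Il1rl1. Of all peaks, 0.664% met that rule. Both KO libraries were below both Ctrl libraries at 5 of the 20 member peaks, 4 of them in Il1rl1, against 16.1% of all peaks, and above both at 2 of the 20, against 16.2% of all peaks. The peaks of one gene share its libraries and lie close together, so they are not separate replicates.

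Between Il1rl2 and Il1rl1 lay 7 more intergenic peaks, at -49.3 to -16.2 kb. Together they held 441 and 446 normalized counts in Ctrl and 417 and 431 in KO. Their log2 fold changes ranged from -0.26 to 0.33 with a median of -0.14, and 0 of the 7 had an unadjusted DESeq2 p below 0.05 (the lowest was 0.382). Of all 56615 peaks, 864 were below that threshold. Over the same libraries the 5 peaks within 5 kb of the Il1rl1 start, a group drawn after their values were seen, held 381 and 302 in Ctrl against 194 and 162 in KO. The other 22 peaks of the cluster summed to 2258 and 2089 in Ctrl and 2225 and 1918 in KO, with a median log2 fold change of 0.026.

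**Figure D2:**
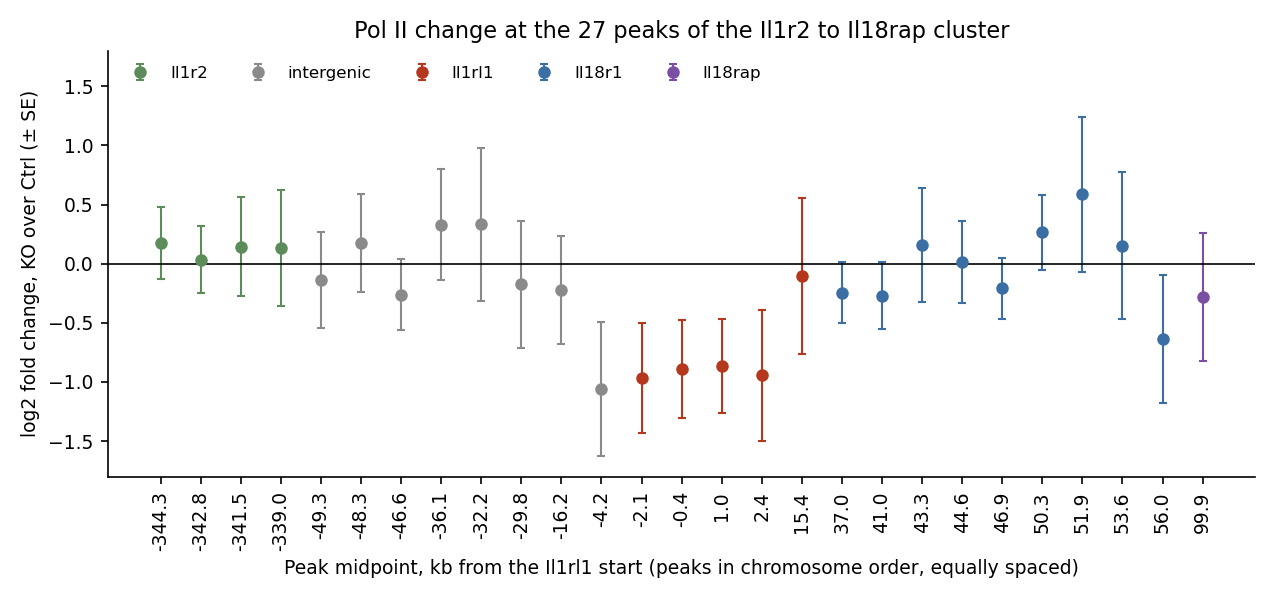
Log2 fold change of KO over Ctrl (points, DESeq2) with its SE (bars) at the 27 peaks from the Il1r2 start to the Il18rap end, in chromosome order and equally spaced, with the distance from the Il1rl1 start in kb on the x axis. The 5 neighbouring peaks from -4.2 to 2.4 kb sit between -1.06 and -0.87, and the other 22 between -0.64 and 0.59.

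Il18r1, the ligand-binding chain of the IL-18 receptor, is the nearest neighbour (chr1:40465552-40500854, + strand) and had the most reads of the members. Its 9 peaks summed to 1290 and 1210 normalized counts in Ctrl 1 and Ctrl 2, and to 1296 and 1025 in KO 1 and KO 2. KO 1 was the highest of the 4 libraries and KO 2 the lowest, so the groups overlapped. On the log2 scale KO differed from Ctrl by -0.10 ± 0.16 SE, and the DESeq2 adjusted p was 0.9997. The 95% interval of -0.41 to 0.21 did not reach the Il1rl1 estimate of -0.82 but overlapped the Il1rl1 interval of -1.28 to -0.35. The sign for Il18r1 rested on 1 library: without KO 2 the value was 0.052, and without KO 1 it was -0.29.

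The peak over the Il18r1 starts (chr1:40465384-40467771) begins within the last bases of Il1rl1. It held 318 and 309 normalized counts in Ctrl 1 and Ctrl 2 against 306 and 218 in KO 1 and KO 2. Both KO libraries were below both Ctrl, KO 1 by little. Its log2 fold change was -0.24 ± 0.26 SE with an unadjusted DESeq2 p of 0.342, and it was -0.53 without KO 1 and -0.028 without KO 2. Across the 9 Il18r1 peaks the log2 fold changes ranged from -0.64 to 0.59 with a median of 0.017. Lower values in KO were seen at 4 of them, and 0 had an unadjusted p below 0.05 by DESeq2, where 864 of all 56615 peaks did.

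Il18rap, the accessory chain of the IL-18 receptor (chr1:40515362-40551705, + strand), held 1 intronic peak (chr1:40529268-40529747). As a gene it had 60.4 and 29.2 normalized counts in Ctrl 1 and Ctrl 2, and 42.5 and 32.9 in KO 1 and KO 2, from 19 to 86 reads. The 2 Ctrl libraries enclosed both KO libraries. The log2 fold change of -0.26 ± 0.54 SE had a 95% interval of -1.32 to 0.81, wide enough to hold both no change and the Il1rl1 value, and it turned to 0.38 without Ctrl 1.

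Il1r2, the decoy receptor for IL-1 (chr1:40074079-40125231, + strand), lay at the far end of the cluster. It had 4 peaks with midpoints in an intron, 3 of them within 3 kb of a start of the gene. It held 405 and 391 normalized counts in Ctrl 1 and Ctrl 2, and 436 and 433 in KO 1 and KO 2. Both KO libraries were slightly above both Ctrl libraries. DESeq2 gave a log2 fold change of 0.12 ± 0.19 SE (95% interval -0.24 to 0.49) and an adjusted p of 0.9997. All 4 peaks also lie in 1 or both of the non-coding genes Gm16894 and Gm37347, and CUT&Tag reads have no strand, so the counts cannot be credited to Il1r2 alone.

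Il1rap, the accessory chain that ST2 shares with the IL-1 and IL-36 receptors (chr16:26581704-26730117, + strand), held 1 peak over its CpG-rich start (chr16:26581184-26582191). It gave 122 and 115 normalized counts in Ctrl 1 and Ctrl 2, and 144 and 130 in KO 1 and KO 2. Both KO libraries were above both Ctrl libraries, and the log2 fold change of 0.21 ± 0.30 SE had a 95% interval of -0.37 to 0.80 (DESeq2 adjusted p = 0.9997). The partner chain of ST2 thus gave no call in either direction. Il1rl2, the IL-36 receptor (chr1:40324610-40367562, + strand), and Il1r1, the signalling IL-1 receptor (chr1:40225080-40317257, + strand), had 0 merged peaks. Since the table lists only called peaks, this sets no level for them.

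Levels were compared between genes per kb of peak. In Ctrl the order was Il1rl1 (145 and 123 normalized counts per kb in Ctrl 1 and Ctrl 2), Il18r1 (127 and 119), Il1rap (121 and 115), Il1r2 (107 and 103) and Il18rap (126 and 60.9). Neighbours in that order overlapped, except that both Ctrl values of Il1rap were above both of Il1r2. In KO the order was Il1rap (143 and 129 per kb in KO 1 and KO 2), Il1r2 (115 and 114), Il18r1 (128 and 101), Il18rap (88.6 and 68.5) and Il1rl1 (79.8 and 72.1). Il1rl1 went from first to last. Its KO values overlapped those of Il18rap and lay below those of the other 3 genes. Peak lengths were themselves called on these libraries, so the order depends on where peaks ended.

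**Figure D3:**
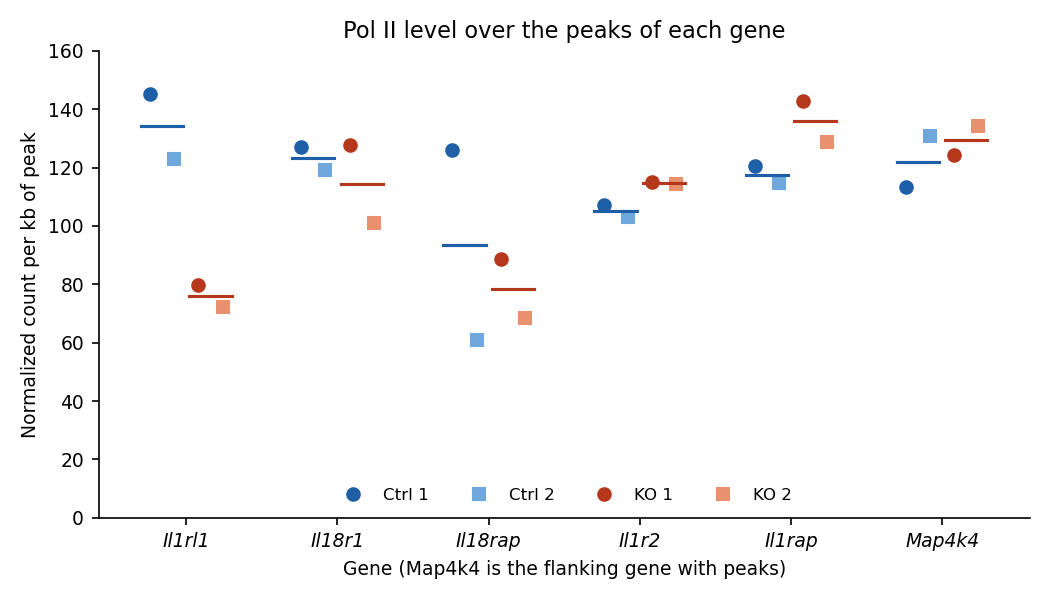
Normalized Pol II counts per kb of peak in each library for the 5 members with a peak and for the flanking gene Map4k4. Points are libraries and bars are means of 2; Il1rl1 lies at 123 and 145 in Ctrl and 72.1 and 79.8 in KO, the one gene here whose KO libraries both lie below its Ctrl libraries.

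To ask directly whether a neighbour changed with Il1rl1, the count of each gene was divided by the Il1rl1 count of the same library, which needs no scaling between libraries. The log2 ratio of Il18r1 to Il1rl1 was 1.92 and 2.06 in Ctrl 1 and Ctrl 2, and 2.79 and 2.59 in KO 1 and KO 2. Both KO ratios exceeded both Ctrl ratios, and the difference of the means was 0.70 on the log2 scale, a 1.62-fold higher ratio. The ratios of Il1r2 (0.25 and 0.43 in Ctrl, 1.21 and 1.35 in KO) and Il1rap (-1.49 and -1.33 in Ctrl, -0.38 and -0.39 in KO) were higher in KO by 0.94 and 1.02, with no overlap.

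The ratio of Il18rap to Il1rl1 was -2.50 and -3.31 in Ctrl 1 and Ctrl 2 and -2.14 and -2.37 in KO 1 and KO 2, a difference of 0.65 that ranged from 0.24 to 1.05 when 1 library was left out. For each of the 4 genes the exact two-sided permutation test over the 4 libraries gave p = 0.333, which is the smallest value that 2 against 2 libraries allow, so this test cannot pass 0.05. All 4 ratios share the Il1rl1 counts and are not 4 separate results. A ratio also rises for a gene whose own counts do not change, because the Il1rl1 count was lower in KO. The ratio of the flanking gene Map4k4 was higher in KO by 0.90. The share of all genes with this pattern was not counted, so the lack of overlap cannot be read as a result about the neighbours.

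**Figure D4:**
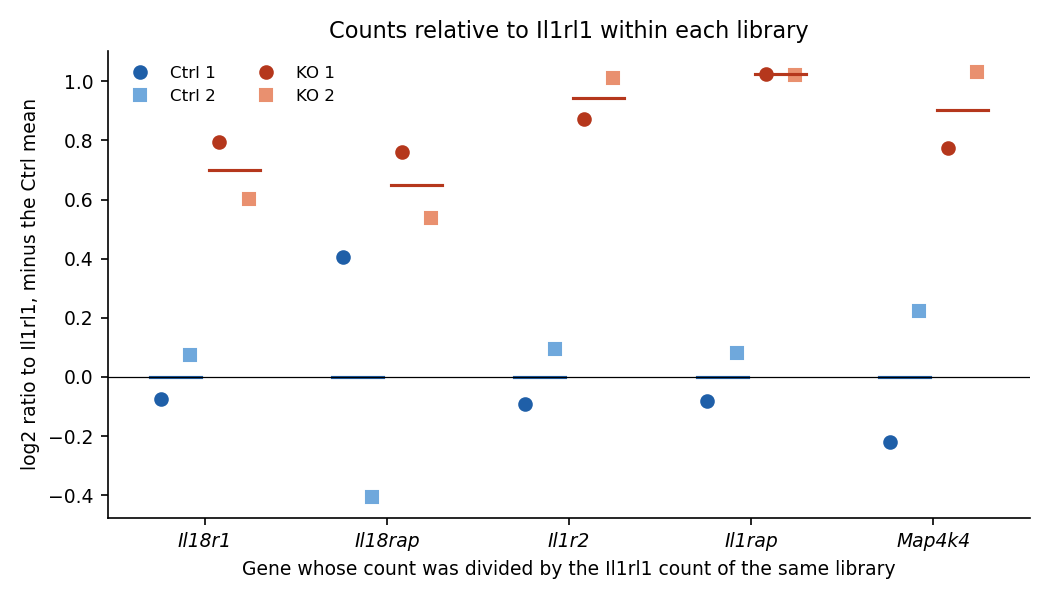
Log2 ratio of the count of each gene to the Il1rl1 count in the same library, minus the Ctrl mean of that gene. Points are libraries and bars are group means of 2. The KO means lie 0.65 (Il18rap) to 1.02 (Il1rap) above the Ctrl means. KO libraries lie above Ctrl libraries for all 5 genes plotted, the flanking Map4k4 included. All 5 are divided by the same Il1rl1 counts, which were lower in KO.

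Outside the cluster, 5 protein-coding genes lay within 500 kb of Il1rl1. Slc9a4, Slc9a2, Mfsd9 and Tmem182, on the far side of Il18rap, had 0 peaks. Map4k4, a kinase gene before Il1r2 that is named because it alone had peaks, held 46 of them and summed to 3323 and 3829 normalized counts in Ctrl against 3643 and 3937 in KO. The groups overlapped, with a log2 fold change of 0.084 ± 0.13 SE.

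Of 31 genes listed for the ligands, regulators and signalling chain of these receptors, 19 had a peak. By DESeq2 0 of the 19 had an adjusted or an unadjusted p below 0.05, and by edgeR 0 had an unadjusted p below 0.05. Across all genes, 2.81% were below the unadjusted threshold by DESeq2 and 4.77% by edgeR, so 0 of 19 is near those shares. The log2 fold changes of the 19 ran from -0.13 to 0.40 with a median of 0.030. Myd88, the adaptor of the joined receptors, held 733 and 683 normalized counts in Ctrl and 732 and 679 in KO (log2 fold change -0.0047 ± 0.16 SE). The kinase gene Irak4 had 0.010 ± 0.18 and the ubiquitin ligase gene Traf6 had -0.12 ± 0.18. The ligand genes Il33 and Il18 were among the 12 with no merged peak.

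A further list held 14 genes known from ST2+ Treg cells, of which 13 had a peak. Gata3, whose product binds GATA words, gave 3615 and 2991 normalized counts in Ctrl 1 and Ctrl 2 against 3434 and 2732 in KO 1 and KO 2. Its groups overlapped, with a log2 fold change of -0.098 ± 0.15 SE. Of the 13 genes, 0 had an adjusted or an unadjusted p below 0.05 by DESeq2 and 0 had an unadjusted p below 0.05 by edgeR. This is near the shares of all genes below the unadjusted threshold, 2.81% by DESeq2 and 4.77% by edgeR. The log2 fold changes of the 13 ran from -0.22 to 0.77 with a median of 0.044.

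Other cells carry ST2, and their markers were read beside the Il1rl1 result. Of 5 mast cell and basophil genes, 2 had a peak (Cpa3 and Hdc), while Kit, Fcer1a and Ms4a2 had none. Cpa3 held 43.5 and 36.2 normalized counts in Ctrl and 51.4 and 32.9 in KO (log2 fold change 0.10 ± 0.52 SE). Hdc held 1110 and 1129 in Ctrl and 1085 and 1091 in KO (-0.042 ± 0.14 SE). Of the Th2 and ILC2 cytokine genes 1 of 3 had a peak (Il4, 33.7 and 52.9 in Ctrl, 38.4 and 65.8 in KO), and Il5 and Il13 had none. Of 5 B cell genes only Cd79a had peaks (82.1 to 86.4 in Ctrl, 67.3 to 123 in KO), and of 5 erythroid genes only Klf1 (196 to 211 in Ctrl, 189 to 224 in KO). Of 5 myeloid genes only Cd68 had a peak, shared with Mpdu1, with lower counts in KO (1234 and 1310 in Ctrl, 1097 and 950 in KO, with an unadjusted DESeq2 p of 0.0398 and an adjusted p of 0.9997). The part of these cells in the Il1rl1 result was not tested.

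The 5 genes whose pattern over the 4 libraries was closest to Il1rl1 were Ttc27, Clcn4, Mrto4, Fxyd4 and Mut, by the Euclidean distance of centred log2 normalized counts (0.092 to 0.15) among the 12411 genes whose mean count reached 50. They lay on chromosomes 17, 7, 4, 6 and 17. Their log2 fold changes of -0.71 to -0.83 follow from that choice. Clcn4, a chloride transporter gene, fell from 983 and 836 normalized counts in Ctrl to 571 and 542 in KO (log2 fold change -0.71 ± 0.17 SE, DESeq2 adjusted p = 0.0245). It was the 1 gene of the 5 with an adjusted p below 0.05.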

How the data were processed

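Pol II CUT&Tag was performed on splenic Treg nuclei from 2 Ctrl and 2 KO samples. The deposited table holds raw read counts per merged peak. According to the methods, the authors mapped paired reads to mm10 with Bowtie2, called peaks with MACS2 against IgG and counted with bedtools, with tool versions not given in the sources used here. Because peaks were called on the libraries compared, weakly occupied genes can lack a peak.

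Peaks were assigned with GENCODE on GRCm38, protein-coding genes first, and shared peaks counted for each gene. Counts per peak and per gene were tested with DESeq2 1.42.0 (Wald test, two-sided, genotype only, Benjamini-Hochberg over all genes or peaks), the tool of the study, with edgeR 4.0.16 as an alternative (R 4.3.3). The fit was tested on simulated data. Members and lists were chosen with earlier results of these data known. Named genes were all members, fixed pathway genes, list genes with an unadjusted p below 0.05, and the 5 genes nearest to Il1rl1 in pattern. Marker genes that held a peak and the flanking Map4k4 were named after their values were seen. Reads are not independent molecules.

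Alternatives were other size factors, a block for the replicate number, a minimum mean of 10 counts, leaving out each library, and 3 other rules for a gene's peaks.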

Additional observations from a re-analysis of the deposited data

How the results depend on the processing

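Il1rl1 was lower in KO, with an unadjusted p below 0.05, under all 8 alternatives with a test, at log2 fold changes of -0.89 to -0.75, and at -0.93 to -0.69 when 1 library was left out. Without the 3 kb upstream it was -0.75 with an unadjusted DESeq2 p of 0.0133. Leaving out 1 library in turn gave -0.29 to 0.052 for Il18r1, which reversed without KO 2 (0.052), -0.66 to 0.38 for Il18rap, which reversed without Ctrl 1 (0.38), 0.10 to 0.15 for Il1r2, 0.13 to 0.28 for Il1rap, and -0.34 to 0.15 for the Il1rl1 peak at 15.4 kb, which reversed without Ctrl 2 (0.15). The Il18rap gene could not be fitted from peaks near a start, nor Il1rap from the gene body alone, as no peak was left.

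Libraries of the same number deviated together (r = 0.233 across peaks and 0.375 across gene sums), but with 2 pairs the numbers are not taken to pair the samples. With the replicate number as a block, Il1rl1 was -0.82 with an unadjusted p of 0.000755 and no adjusted value, and the peak at -2.1 kb was -0.98 with an unadjusted p of 0.0596, leaving 2 cluster peaks below 0.05 (4 by edgeR, 3 by DESeq2). Over all genes, 13 had an adjusted p below 0.05 by DESeq2, 0 by edgeR and, of the 1203 genes given an adjusted value with the block, 119. For these fits 381, 646 and 597 had an unadjusted p below 0.05. Over all peaks, 0, 27 and 25 (of 14905 given a value with the block) passed adjusted, and 864, 2057 and 911 unadjusted. Depth limits the lowest peaks: the Il1rl1 peak at 15.4 kb, with 12 to 38 reads per library, had an SE of 0.66 on the log2 scale.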
